A study of Mus musculus with 8 samples.

Results

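The 45 genes described here encode the machinery that copies DNA and the enzymes that supply its building blocks. They were taken as a named list of mouse symbols and found in the deposited count table through Ensembl identifiers, 45 of 49315 identifiers in all. Every member matched an identifier and passed the filter on low counts, which left 16760 genes tested. RNA came from the whole esophagus of 8 male mice, 8 weeks old, on the C57BL/6J background. The EoE33 group held 4 transgenic mice that overexpress IL-33, an epithelial alarmin cytokine, in the esophagus, and the control group held 4 wild type littermates. The promoter that drives the transgene is not given in the sources used here. Il33 itself lay between 99.8 and 165 counts per 1000000 (CPM) in wild type and between 355 and 393 CPM in EoE33, which does not separate transgene from endogenous transcripts.

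DNA replication starts when the origin recognition complex, CDC6 and CDT1 load the MCM helicase onto chromatin in G1 phase. At the onset of S phase CDC45 and the GINS complex join MCM to form the active helicase, and primase, polymerases, the PCNA clamp and its RFC loader then synthesise both strands. Nucleotide enzymes, histone chaperones and the maintenance methylation enzymes work alongside the fork. Much of this set is transcribed at the G1/S transition under E2F factors, and in squamous epithelium cycling cells lie mainly in the basal layer.

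Library totals ranged from 17726292 to 24070822 counts. The libraries stood apart in ways the labels do not give: airway marker genes summed to 437 CPM in wild type replicate 3 against 5.83 to 6.49 CPM in the other wild type libraries, and liver marker genes summed to 133 CPM in wild type replicate 1 against 3.81 to 10.3 CPM in the others. Without both of these libraries, an alternative added after seeing the data, 42 of the 45 genes rose, and the call that was lost was that of Orc2 (edgeR adjusted p = 0.141). Skeletal muscle markers fell in 21 of 22 genes and their sum went from 53540 to 58883 CPM in wild type down to 13955 to 18493 CPM in EoE33. In bulk tissue a smaller number of cells of a type and less RNA per cell cannot be told apart, and the same holds for more cells and more RNA per cell.

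Replication genes were higher in EoE33 almost throughout. Of the 45 genes 43 rose (edgeR quasi-likelihood test, Benjamini-Hochberg adjusted p under 0.05) and 0 fell, which is 95.6%. Of all tested genes 31.3% rose, 32.1% fell and 63.4% passed in either direction. The exceptions were Pold2, a polymerase delta subunit, and Rpa1, the large subunit of the single-strand binding protein. At least a doubling was called for 33 genes, where 12.3% of all genes met the same rule. The groups did not overlap, with EoE33 higher, in 42 of the 45 genes, as in 29.6% of all tested genes. No member was lower in EoE33 without overlap, as 29.9% of all tested genes were. The median log2 fold change was 1.80 for the list and -0.01 for all genes tested. Single genes ranged from -0.06 for Rpa1 to 3.66 for Mcm10.

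**Figure D1:**
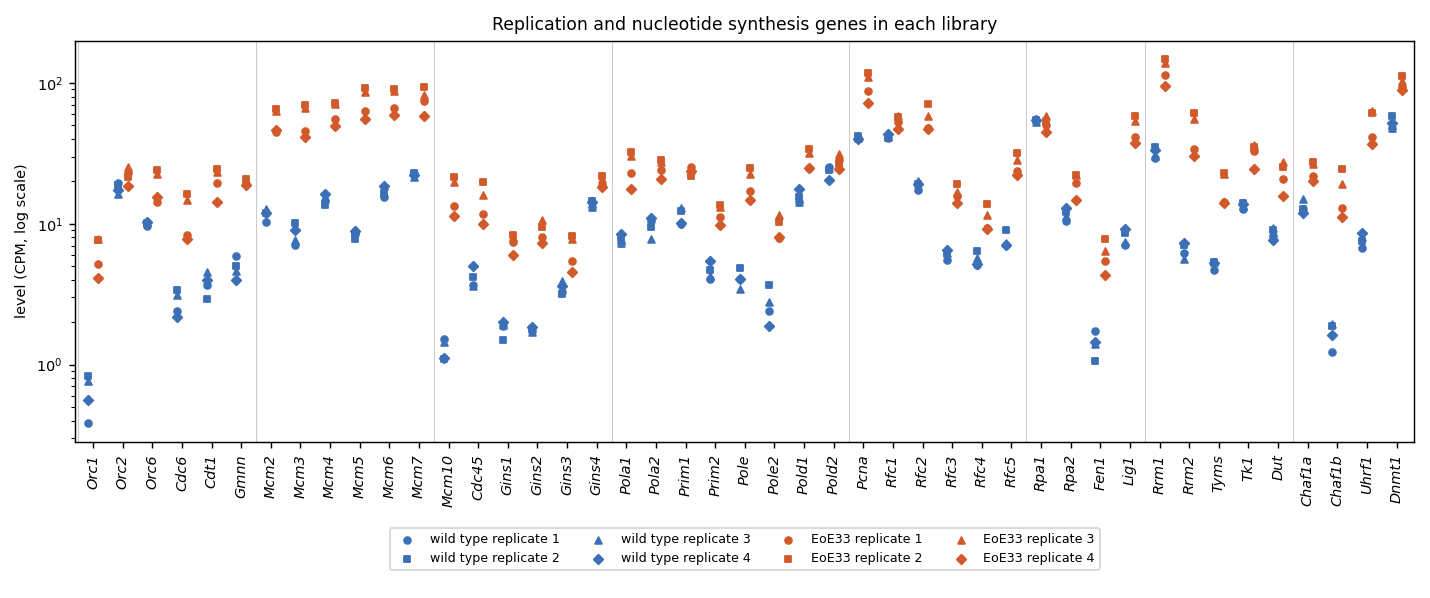
Level of each of the 45 genes in each of the 8 libraries, in CPM on a log axis; genes are grouped by role with grey lines between groups, blue symbols are wild type and orange symbols EoE33. The groups overlap only for Orc2, Pold2 and Rpa1, and EoE33 replicates 2 and 3 lie above replicates 1 and 4 for most genes.

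Of the licensing genes all 6 rose. Orc1, the origin recognition subunit whose level is known to change through the cell cycle (chr4:108579423-108614833, GRCm38), was at 0.382, 0.835, 0.762 and 0.557 CPM in wild type replicates 1 to 4. It was at 5.2, 7.61, 7.85 and 4.14 CPM in EoE33 replicates 1 to 4. Every EoE33 library was above every wild type library, and the gene rose 9.72-fold (log2 fold change 3.28 with a standard error, SE, of 0.31, edgeR adjusted p = 1.95e-05). Orc2, a constitutive subunit of the same complex, was at 19.3, 18.8, 16.3 and 17.4 CPM in wild type and at 23.1, 21.4, 25.2 and 18.4 CPM in EoE33. Its groups overlapped through EoE33 replicate 4, and it rose only 1.23-fold (log2 fold change 0.29 with SE 0.11, edgeR adjusted p = 0.0361). That call was lost with library size as the only scaling (adjusted p = 0.0753) and without wild type replicate 3 (0.0933), wild type replicate 4 (0.0753), EoE33 replicate 1 (0.0775) or EoE33 replicate 3 (0.0896). With a term for the replicate number its adjusted p was 0.06. Orc6 rose 1.88-fold.

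The loading factors had larger fold changes than Orc2 and Orc6, a difference that was not tested. Cdc6, the ATPase that recruits the helicase with CDT1, rose 4.23-fold from 2.78 ± 0.569 to 11.8 ± 4.3 CPM (SD, n = 4 each). Cdt1, the loading factor itself, rose 5.41-fold from 3.78 ± 0.697 to 20.5 ± 4.69 CPM (SD, n = 4 each). Gmnn encodes geminin, the inhibitor of CDT1, and rose 4-fold from 4.91 ± 0.818 to 19.7 ± 0.962 CPM (SD, n = 4 each). In EoE33 Gmnn varied little between mice while Cdt1 varied by a larger share of its mean. The ratio of Cdt1 to Gmnn counts was 0.616, 0.576, 0.982 and 1 in the wild type libraries and 1.03, 1.18, 1.18 and 0.756 in the EoE33 libraries. These ratios overlapped and their difference did not pass (exact two-sided permutation test over 70 orderings, adjusted p = 0.171 over 21 ratios).

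All 6 subunits of the MCM helicase core rose, between 3.45-fold and 8.71-fold. Mcm5 (chr8:75109569-75128439) was at 8.44, 7.77, 8.93 and 8.95 CPM in wild type and at 63.6, 91.8, 86.6 and 55.1 CPM in EoE33. The lowest EoE33 library, replicate 4, was far above the highest wild type library (log2 fold change 3.12 with SE 0.17, edgeR adjusted p = 1.48e-06). Mcm7 (chr5:138164583-138172422) was at 23, 23.1, 21.4 and 22.1 CPM in wild type and at 74.3, 94.5, 81.7 and 58.4 CPM in EoE33. Its fold change was the smallest of the 6, and its groups did not overlap (log2 fold change 1.79 with SE 0.13, edgeR adjusted p = 5.4e-06). Mcm3, Mcm2, Mcm6 and Mcm4 rose 6.62-fold, 4.69-fold, 4.42-fold and 4.15-fold.

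Transcripts of the 6 subunits rose by unequal folds. The ratio of Mcm5 to Mcm7 counts was 0.368, 0.338, 0.418 and 0.405 in wild type and 0.857, 0.972, 1.06 and 0.944 in EoE33, a 2.51-fold higher ratio without overlap. These are the subunits with the largest and the smallest fold change, so their ratio is a description. Such a ratio is taken within a library and so does not depend on scaling between libraries. Per kilobase of exons, Mcm5 was at 2.13 ± 0.138 CPM per kb in wild type and 18.6 ± 4.43 CPM per kb in EoE33, and Mcm7 was at 5.06 ± 0.179 and 17.4 ± 3.41 CPM per kb (SD, n = 4 each). The highest of the 6 subunits exceeded the lowest by 3.02-fold ± 0.36 in wild type and 2.38-fold ± 0.21 in EoE33 (SD, n = 4 each). With the longest transcript as length the spread was 3.3-fold in wild type and 1.7-fold in EoE33, so the size of the narrowing depends on the gene model. Mcm2 was the lowest subunit per length in EoE33 under both lengths.

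The promoters of these genes were compared because the members rose together. In RefSeq windows on GRCm38.p6, from 250 bases before to 50 after each start, 46 windows matched 37 of the 45 genes. The letters TTTCCCGC, TTTGGCGC and TTTCGCGC, which are forms of the E2F site, were searched on both strands. At least 1 of them was in 32.6% of the members' windows (15 of 46, Wilson 95% interval 20.9% to 47%), in 1.84% of all 32851 windows and in 2.93% of the windows of tested genes. Some genes have more than 1 window, and the interval treats windows as independent. By gene, a match was found for 40.5% of the 37 members and 3.54% of tested genes. A CCAAT box (CCAAT, both strands) was in 60.9% of the members' windows, 37.4% of all and 36.9% of those of tested genes. A GC box (GGGCGG, both strands), which can share bases with TTTCCCGC, was in 67.4% of the members' windows, 35.7% of all and 57.9% of those of tested genes. The CHR element of mitotic genes (TTTGAA or TTCGAA, both strands) was in 17.4% of the members' windows, 19.2% of all and 14.4% of those of tested genes. A match is a description of letters and not of a bound site.

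The 160 bases before the RefSeq start are shown for 5 genes that hold an E2F match there and for Rpa1. Rpa1 holds none and did not pass the test. Rfc3 and Gins3 also hold a match within these bases but are not shown. Their log2 fold changes, 1.42 and 0.89, were smaller than those of the 5 genes shown, so the sequences shown do not link a match to a rise. Capitals mark the E2F letters. They lie at chr8:75109349-75109508, plus strand (Mcm5), chr1:128359706-128359865, minus strand (Mcm6), chr4:108579294-108579453, plus strand (Orc1), chr11:98907991-98908150, plus strand (Cdc6), chrX:93632156-93632315, minus strand (Pola1) and chr11:75348384-75348543, minus strand (Rpa1).
Mcm5: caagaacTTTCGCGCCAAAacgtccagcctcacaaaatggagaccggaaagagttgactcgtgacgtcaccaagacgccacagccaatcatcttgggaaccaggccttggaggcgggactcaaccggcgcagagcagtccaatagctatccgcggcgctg
Mcm6: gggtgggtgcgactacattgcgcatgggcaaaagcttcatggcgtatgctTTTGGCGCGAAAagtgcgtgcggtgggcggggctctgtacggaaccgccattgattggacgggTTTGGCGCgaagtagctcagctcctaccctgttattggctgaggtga
Orc1: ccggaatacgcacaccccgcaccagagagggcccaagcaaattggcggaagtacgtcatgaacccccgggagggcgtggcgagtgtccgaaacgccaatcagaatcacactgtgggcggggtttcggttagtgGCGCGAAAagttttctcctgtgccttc
Cdc6: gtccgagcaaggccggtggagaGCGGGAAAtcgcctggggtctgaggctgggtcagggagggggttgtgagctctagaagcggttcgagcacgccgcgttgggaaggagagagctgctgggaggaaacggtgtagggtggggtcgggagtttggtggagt
Pola1: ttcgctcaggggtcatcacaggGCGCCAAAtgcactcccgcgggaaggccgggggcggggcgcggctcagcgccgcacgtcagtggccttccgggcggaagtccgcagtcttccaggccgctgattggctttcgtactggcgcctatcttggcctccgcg
Rpa1: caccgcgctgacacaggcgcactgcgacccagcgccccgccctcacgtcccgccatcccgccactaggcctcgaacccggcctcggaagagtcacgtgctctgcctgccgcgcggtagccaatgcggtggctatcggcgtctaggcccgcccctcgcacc

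In the Mcm5 sequence a pair of overlapping matches begins 153 bases before the start. The Mcm6 sequence holds overlapping matches from 110 bases before the start and a further match 47 bases before it. In Orc1 the match begins 27 bases before the start, and in Cdc6 and Pola1 it begins 138 bases before. These distances are to the RefSeq start. The Cdc6 sequence lies inside the annotated gene, which begins at chr11:98907801, and the Orc1 match also lies just inside its annotated gene. For Dnmt1, Lig1 and Uhrf1 the match lay only in the window of a later start. The 15 genes with a match had a median log2 fold change of 2.08 (range 0.89 to 3.28), and the 22 genes with windows but no match had a median of 1.32 (range -0.06 to 3.66). Mcm10, the largest rise, and Rrm2 and Chaf1b were among the genes without these letters in the window.

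Genes that turn the loaded helicase on rose in all 6 cases. Mcm10, a factor of helicase activation outside the core ring (chr2:4989714-5012791), was at 1.53, 1.1, 1.44 and 1.11 CPM in wild type and at 13.3, 21.7, 19.8 and 11.3 CPM in EoE33. Its EoE33 libraries were all far above wild type, and the 12.7-fold rise was the largest of the 45 genes (log2 fold change 3.66 with SE 0.25, edgeR adjusted p = 3.49e-06). Relative to Mcm2 it rose too: the ratio of Mcm10 to Mcm2 counts was 2.65-fold higher in EoE33 (exact permutation adjusted p = 0.0353). Cdc45 rose 3.48-fold.

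The GINS subunits, which work as a tetramer, moved unequally. Gins4 was at 13.2, 14.6, 13.1 and 14.4 CPM in wild type and at 18.9, 21.9, 21 and 18.3 CPM in EoE33. Its groups were close but did not overlap, with a 1.45-fold rise (log2 fold change 0.54 with SE 0.09, edgeR adjusted p = 0.000545). Gins2, Gins1 and Gins3 rose 5-fold, 4.09-fold and 1.85-fold. Per kilobase of exons Gins4 exceeded the lowest subunit, Gins2, by 23.7-fold ± 0.68 in wild type and by 7.06-fold ± 0.88 in EoE33 (SD, n = 4 each). The exons of Gse1, on the opposite strand, cover 67.3% of the Gins2 exon length, and the use of strand in counting is not given, so the level of Gins2 is uncertain. Smaller overlaps with opposite-strand exons touch Orc2 (29.8% of its exon length), Rfc2 (15.1%), Rfc4 (12.7%), Orc1 (10.8%) and Rfc5 (10.7%).

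**Figure D2:**
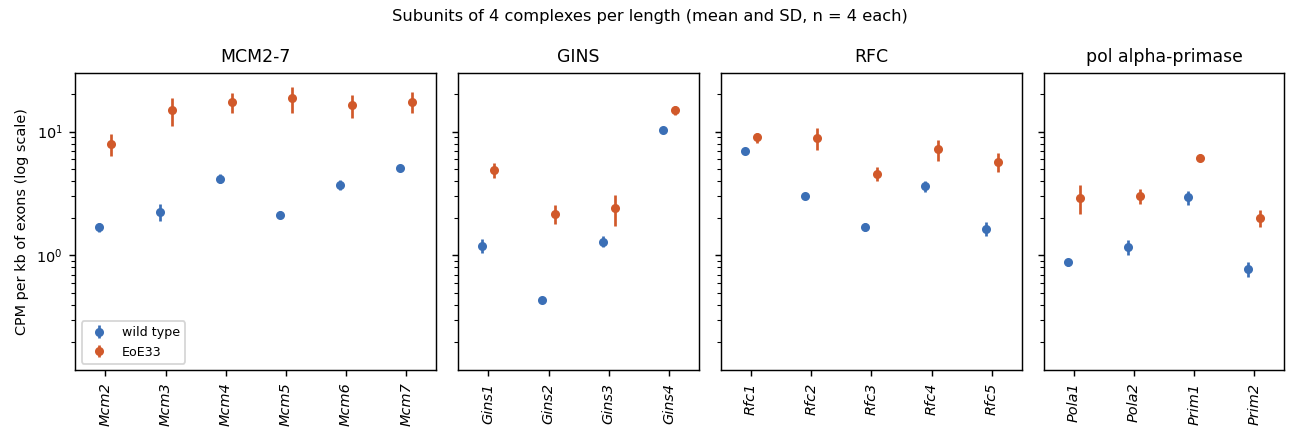
Levels of the subunits of 4 complexes in CPM per kb of exons on a log axis, mean and SD over 4 mice per group, blue for wild type and orange for EoE33. The wild type subunits are more unequal than the EoE33 ones in GINS (23.7-fold against 7.06-fold) and RFC (4.4-fold against 2.05-fold). The GINS spread is that of Gins4 over Gins2, and the level of Gins2 is uncertain. Most of the RFC narrowing came from Rfc1.

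Of the primase and polymerase genes 7 of 8 rose and Pold2 did not pass. Pole, the catalytic subunit of the leading strand polymerase epsilon, was at 4.07, 4.88, 3.43 and 4.07 CPM in wild type and at 17.1, 24.9, 22.6 and 14.8 CPM in EoE33. The groups were well apart (log2 fold change 2.27 with SE 0.19, edgeR adjusted p = 9.88e-06). Its partner Pole2 rose 3.52-fold. Pola1 and Pola2, of the polymerase alpha that starts each strand, rose 3.32-fold and 2.6-fold, and the primase genes Prim1 and Prim2 rose 2.09-fold and 2.58-fold. The ratios of Pola1 to Pola2 and of Prim1 to Prim2 did not pass (exact permutation adjusted p = 0.0666 and 0.15).

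Pold1 and Pold2, of the polymerase delta that copies the lagging strand, had the smallest fold changes of these 8 genes. Its catalytic gene Pold1 rose 1.88-fold from 15.4 ± 1.58 to 29 ± 4.87 CPM (SD, n = 4 each). Pold2 was at 25.1, 24, 24.8 and 20.3 CPM in wild type and at 28.3, 26.6, 31.5 and 24.3 CPM in EoE33. EoE33 replicate 4 lay inside the wild type range, and the log2 fold change was 0.23 (95% interval 0.01 to 0.46, edgeR adjusted p = 0.0682). It passed without EoE33 replicate 4 (adjusted p = 0.0331), with a term for the replicate number (0.0302) and with muscle genes and Chil4 left out of the library size (0.0407). The ratio of Pole to Pold1 counts was 0.284, 0.318, 0.242 and 0.232 in wild type and 0.687, 0.728, 0.706 and 0.597 in EoE33, with no overlap and a 2.54-fold higher ratio in EoE33 (exact permutation adjusted p = 0.0353).

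The clamp and its loader rose in all 6 genes, with a median log2 fold change of 1.33 against 2.19 for the MCM core. Pcna, the sliding clamp that holds the polymerase on DNA (chr2:132249162-132253314), was at 41, 42.3, 40.5 and 40.3 CPM in wild type and at 87.2, 118, 110.1 and 72.2 CPM in EoE33. The wild type mice were within a narrow band and all EoE33 mice were above it (log2 fold change 1.24 with SE 0.14, edgeR adjusted p = 7.27e-05). Per length Pcna was the most abundant of the 45 transcripts in both groups, at 17.1 ± 0.383 and 40.4 ± 8.82 CPM per kb (SD, n = 4 each). The ratio of Pcna to Mcm5 counts was 4.84, 5.43, 4.53 and 4.49 in wild type and 1.37, 1.29, 1.27 and 1.31 in EoE33. No libraries overlapped, and the ratio fell to 0.272 of its wild type value (exact permutation adjusted p = 0.0353). A pseudogene transcript, Pcna-ps2, shares 7.96% of the 150-base windows of the Pcna transcript.

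Among the clamp loader genes Rfc5 rose most, from 7.04, 9.09, 7.28 and 7.07 CPM in wild type to 23.6, 32, 28.6 and 22.4 CPM in EoE33. Wild type replicate 2 was the highest of its group, and all EoE33 libraries were above it (log2 fold change 1.81 with SE 0.14, edgeR adjusted p = 7.09e-06). Rfc1, the large subunit found only in the replication form of the loader, was at 40.8, 41, 41 and 43.7 CPM in wild type and at 53.1, 57.7, 57.9 and 47 CPM in EoE33. Its groups lay close without overlap, and it rose 1.29-fold (log2 fold change 0.37 with SE 0.08, edgeR adjusted p = 0.00228). Rfc2, Rfc3 and Rfc4 rose 2.95-fold, 2.68-fold and 1.97-fold. The 5 subunits spanned 4.4-fold ± 0.35 per length in wild type and 2.05-fold ± 0.06 in EoE33 (SD, n = 4 each). Without Rfc1, the other 4 spanned 2.3-fold ± 0.1 in wild type and 1.94-fold ± 0.16 in EoE33, so most of the narrowing came from Rfc1. The ratio of Rfc1 to Rfc4 counts fell to 0.661 of its wild type value (exact permutation adjusted p = 0.0353).

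Genes of single-strand binding and Okazaki fragment maturation included the flattest and some of the steepest members. Rpa1 was at 53.6, 54.9, 52.8 and 54.5 CPM in wild type and at 50.3, 53.8, 58.1 and 44.8 CPM in EoE33. The wild type values lay within the EoE33 range, and the log2 fold change was -0.06 (95% interval -0.24 to 0.12, edgeR adjusted p = 0.539). Its sign turned without EoE33 replicate 4. Rpa2, which encodes the middle subunit of the same trimer, rose 1.67-fold from 11.8 ± 1.07 to 19.7 ± 3.57 CPM (SD, n = 4 each). The ratio of Rpa2 to Rpa1 counts was 0.195, 0.223, 0.217 and 0.238 in wild type and 0.387, 0.413, 0.384 and 0.328 in EoE33, without overlap (exact permutation adjusted p = 0.0353).

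Lig1, the ligase that seals Okazaki fragments (chr7:13277283-13311433), was at 7.04, 8.61, 7.45 and 9.25 CPM in wild type and at 41.5, 58.1, 54.1 and 37.6 CPM in EoE33. Every EoE33 mouse was above every wild type mouse (log2 fold change 2.56 with SE 0.16, edgeR adjusted p = 2.31e-06). Fen1, the nuclease that trims the flaps before ligation, rose 4.24-fold from 1.41 ± 0.281 to 6.01 ± 1.49 CPM (SD, n = 4 each). Gm10143 on the opposite strand covers 78.8% of the Fen1 exon length, and only 616 counts over all 8 libraries were assigned to Fen1. Its level is therefore uncertain, and so is the ratio of Lig1 to Fen1, which did not pass (exact permutation adjusted p = 0.0947).

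All 5 enzymes of nucleotide supply rose. Rrm1, the large subunit of ribonucleotide reductase, was at 29.4, 35.1, 30.3 and 33.4 CPM in wild type and at 115, 148, 138 and 95.8 CPM in EoE33. Rrm2, the small subunit made in S phase, was at 6.15, 7.07, 5.63 and 7.32 CPM in wild type and at 34, 61, 55.7 and 30.3 CPM in EoE33. Neither gene's groups overlapped, and the folds were 3.88 for Rrm1 (edgeR adjusted p = 4.12e-06) and 6.91 for Rrm2 (adjusted p = 2.22e-05). Rrm2b, the p53-inducible small subunit, which is not among the 45 genes, moved the other way, from 25, 21.3, 20.7 and 26.9 CPM in wild type to 13.8, 12.6, 15.3 and 15.5 CPM in EoE33. It fell by 0.71 on the log2 scale, with no overlap (SE 0.11, edgeR adjusted p = 0.000419). The ratio of Rrm2 to Rrm2b counts was 0.247, 0.332, 0.272 and 0.273 in wild type and 2.45, 4.82, 3.64 and 1.95 in EoE33. Counts were higher for Rrm2b in every wild type library and for Rrm2 in every EoE33 library. Exons span 9.13 kb in Rrm2b and 2.77 kb in Rrm2, so the wild type counts do not rank these transcripts by level. The change of the ratio between groups does not depend on length and was 10.8-fold (exact permutation adjusted p = 0.0353).

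Thymidine nucleotides are made by salvage through TK1 and de novo through TYMS, with DUT removing dUTP. Tk1 was at 12.8, 14, 13.5 and 13.8 CPM in wild type and at 33.1, 35.2, 36.4 and 24.7 CPM in EoE33. All EoE33 libraries were above wild type, with replicate 4 the lowest (2.39-fold, SE 0.12 on the log2 scale, edgeR adjusted p = 2.22e-05). Tyms and Dut rose 3.57-fold and 2.6-fold. The ratio of Tk1 to the mitochondrial kinase gene Tk2 was 0.968, 1.21, 0.961 and 1.06 in wild type and 2.36, 2.84, 3.4 and 2.27 in EoE33, again without overlap (exact permutation adjusted p = 0.0353).

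The 4 genes of replication-coupled chromatin all rose. Chaf1b, a subunit of the CAF-1 histone chaperone, was at 1.23, 1.89, 1.95 and 1.63 CPM in wild type and at 12.9, 24.7, 19.2 and 11.2 CPM in EoE33. Chaf1a, its partner in the complex, was at 12.8, 12.8, 15.1 and 11.9 CPM in wild type and at 21.7, 27.5, 26.7 and 20.2 CPM in EoE33. Both separated the groups, but Chaf1b rose 10.1-fold (edgeR adjusted p = 1.29e-05) and Chaf1a 1.83-fold (adjusted p = 0.000258). The ratio of Chaf1a to Chaf1b counts fell to 0.187 of its wild type value (exact permutation adjusted p = 0.0353). These genes have the smallest and the largest fold change of this role, so their ratio is a description. Ubxn6 on the opposite strand covers 52.5% of the Chaf1a exon length, so Chaf1a counts may be mixed or incomplete.

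Dnmt1, the maintenance DNA methyltransferase, was at 48, 57.9, 47.7 and 52 CPM in wild type and at 93.9, 113, 103 and 89.6 CPM in EoE33. The groups did not overlap (log2 fold change 0.96 with SE 0.09, edgeR adjusted p = 2.54e-05). Uhrf1, which brings DNMT1 to hemimethylated DNA, rose 6.55-fold from 7.73 ± 0.816 to 50.6 ± 13.6 CPM (SD, n = 4 each). The ratio of Uhrf1 to Dnmt1 counts was 0.14, 0.13, 0.17 and 0.166 in wild type and 0.441, 0.548, 0.607 and 0.409 in EoE33, a 3.29-fold higher ratio with no overlap (exact permutation adjusted p = 0.0353).

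**Figure D3:**
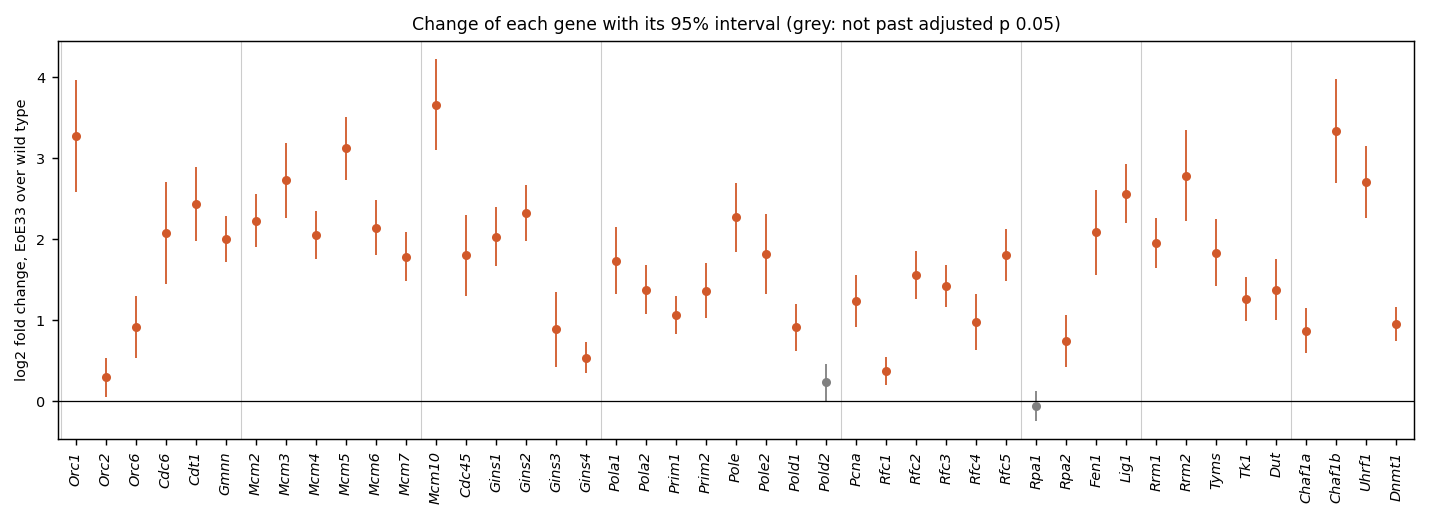
Log2 fold change of EoE33 over wild type for the 45 genes with 95% intervals, grouped by role as in the plot of levels by library; orange genes passed adjusted p 0.05 and grey ones did not. Mcm10 (3.66), Chaf1b (3.34) and Orc1 (3.28) are highest, and Orc2, Pold2, Rfc1 and Rpa1 lie nearest to 0.

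Of 21 ratios of gene pairs computed in each library, 17 passed, 11 higher and 6 lower in EoE33. In the exact permutation test each of the 17 had p = 0.0286, the smallest that 70 orderings of 4 against 4 allow, and an adjusted p of 0.0353. The pairs were chosen with earlier results of these data known. Mcm5 with Mcm7, Orc1 with Orc2 and Chaf1a with Chaf1b join the largest and smallest fold change of a role. For these reasons the p-values of the ratios are no independent support. The Orc1 to Orc2 ratio was 7.84-fold higher in EoE33, and the Cdc6 to Orc1 ratio fell to 0.425 of its wild type value. Against Mki67, a marker of cycling cells in all phases, Mcm5 was 1.88-fold higher in EoE33 and Pcna fell to 0.512 of its wild type ratio. Against Krt5, a keratin of basal keratinocytes, Mcm5 was 2.16-fold higher and Pcna fell to 0.589. Mcm5 and Pcna thus moved in opposite directions relative to the same reference gene.

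**Figure D4:**
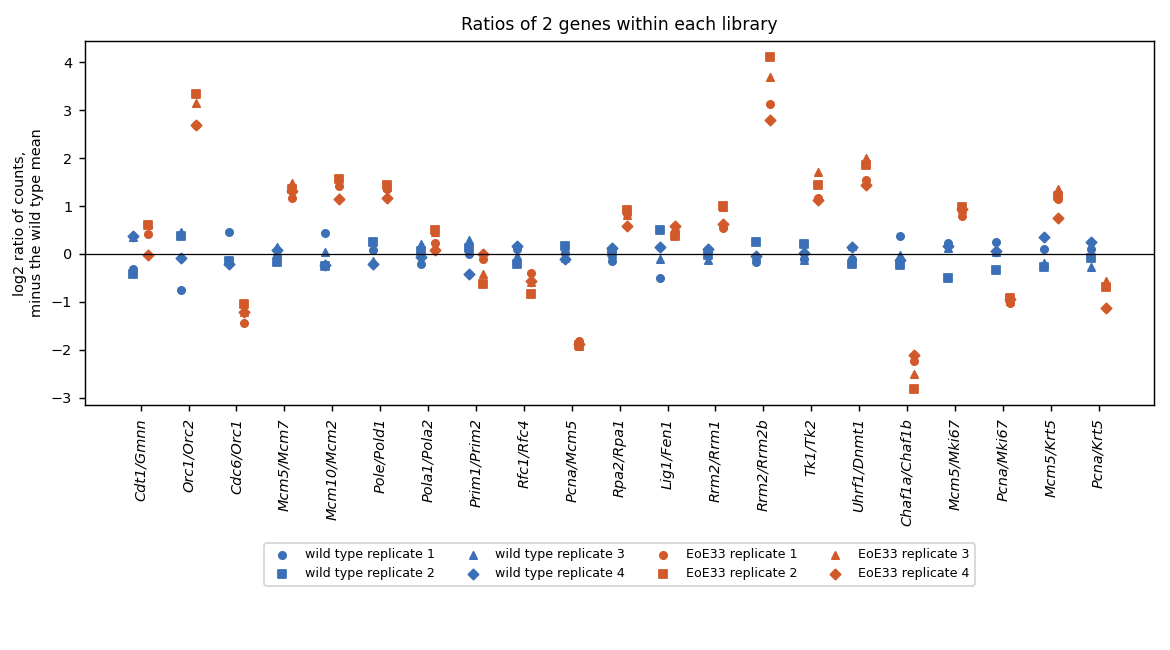
Log2 ratio of the counts of 2 genes in each library minus the wild type mean of that ratio, blue for wild type and orange for EoE33, for all 21 ratios. Rrm2 over Rrm2b (3.44) and Orc1 over Orc2 (2.97) rose most, Chaf1a over Chaf1b fell by 2.42, and Cdt1 over Gmnn is among the 4 that did not pass.

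Other genes of the pathway were taken from a further list of 87. Of these 61 rose, 7 fell and 19 did not pass, with a median log2 fold change of 0.63. Without EoE33 replicate 3, only 4 fell. Fork protection, cohesion and nuclease genes rose in 16 of 16 cases, led by the exonuclease gene Exo1 (11.9-fold, edgeR adjusted p = 1.05e-05) and Dscc1, of an alternative clamp loader (8.22-fold). The 16 include the topoisomerase genes Top1 and Top2a, and Top2a is also among the mitotic reference genes below. Dscc1 rests on few reads, with 8, 4, 6 and 15 counts in the wild type libraries. Origin and firing factors rose in 10 of 13 cases, with Ticrr, which encodes the firing factor treslin, 7.45-fold higher and Dbf4, the activator of the CDC7 kinase, 3.83-fold higher. The 3 that did not pass were the core origin subunits Orc3, Orc4 and Orc5, at log2 fold changes of -0.04, -0.09 and -0.02. Of further polymerase and RPA subunits 2 of 5 rose, Pold3 2.15-fold and Rpa3 1.64-fold. That is 40%, near the 31.3% of all tested genes, with a median log2 fold change of 0.13. Pold4, Pole3 and Pole4 did not pass.

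Histone supply and chromatin genes rose in 6 of 8 cases. Hells, a chromatin remodeller needed for DNA methylation, rose 8.29-fold, and Asf1b, the proliferation-linked ASF1 chaperone gene, rose 7.11-fold. Its paralog Asf1a fell by 0.32 on the log2 scale (edgeR adjusted p = 0.0222), and its groups overlapped. Mcm9 on the opposite strand covers 48.1% of the Asf1a exon length.

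Nucleotide enzymes outside the 45 were listed in 2 groups, whose difference was not tested. Deoxynucleotide and folate enzymes rose in 12 of 14 cases, among them Shmt1 (3.23-fold), which works in the folate cycle, and Rrm2b was the member that fell. Purine and pyrimidine synthesis de novo rose in 6 of 16 cases (37.5%, near the 31.3% of all tested genes) and fell in 3, with a median log2 fold change of 0.16 and no gene at or above a doubling. Cad, which carries the first steps of pyrimidine synthesis, rose 1.6-fold and Impdh1, of guanine nucleotide synthesis, 1.46-fold. Prps1, which makes the ribose phosphate donor, fell with a log2 fold change of -0.71, and Adsl, of the purine pathway, with one of -0.43. The third that fell was Dhodh, at -0.27, named after its value was seen.

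G1/S regulators rose in 9 of 15 cases and fell in 2. E2f7, an atypical repressor of the E2F family, was at 1.23, 1.63, 1.06 and 2.31 CPM in wild type and at 8.59, 20.3, 13.5 and 10.3 CPM in EoE33. Its groups did not overlap (8.43-fold, edgeR adjusted p = 6.03e-05). Ccne1, the cyclin E1 gene, rose 5.78-fold. E2f6, a repressor that lacks a pocket protein binding domain, was at 46.7, 50.2, 45 and 51.5 CPM in wild type and at 25.1, 27.9, 28.6 and 27.1 CPM in EoE33. It fell by 0.83 on the log2 scale with no overlap (edgeR adjusted p = 1.03e-05). Rbl2, the p130 pocket protein gene of resting cells, fell by 0.23 (adjusted p = 0.0193).

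**Figure D5:**
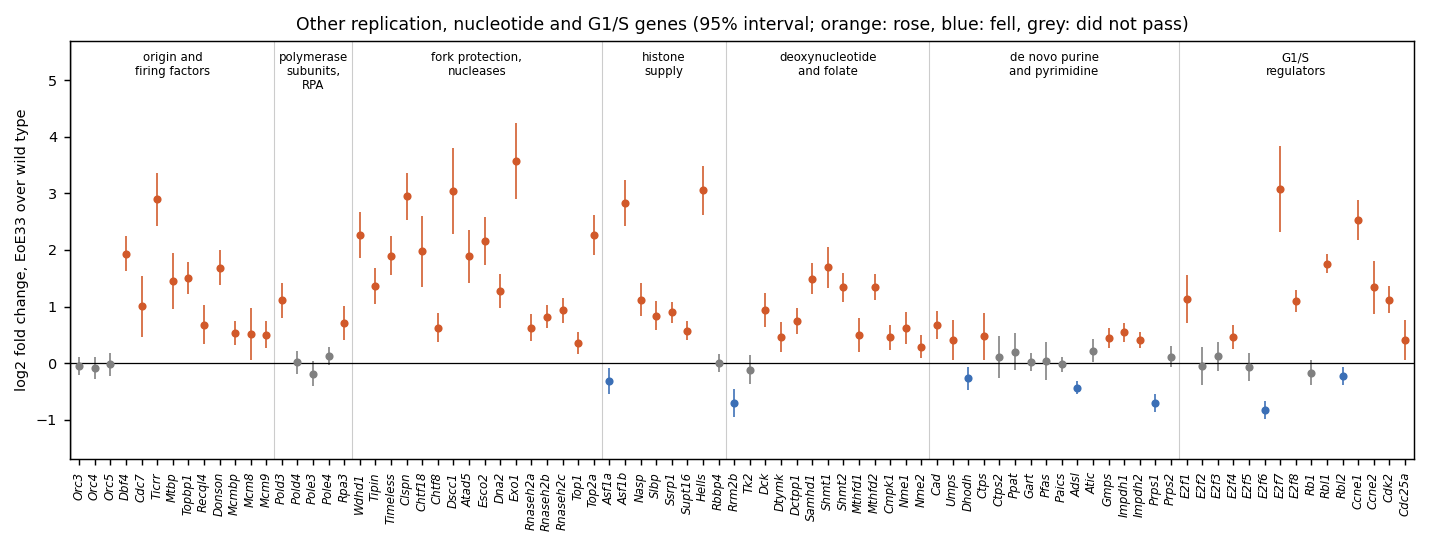
Log2 fold change of EoE33 over wild type with 95% intervals for 86 of the 87 further genes, grouped by role; orange rose, blue fell and grey did not pass. Fork protection genes lie wholly above 0, and the de novo purine and pyrimidine genes lie on both sides of 0, from -0.71 to 0.68.

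Mitotic and basal keratinocyte markers moved with the replication genes. The 7 mitotic reference genes all rose, with a median log2 fold change of 2.27, and their sum was 105 to 149.6 CPM in wild type and 449 to 669.8 CPM in EoE33. Of 7 basal keratinocyte markers 6 rose and Krt15 fell, with a median log2 fold change of 1.21. Their sum was 3501 to 5044 CPM in wild type and 16149 to 19885 CPM in EoE33. Most of the EoE33 sum was Krt14 and Krt5, which averaged 8527 and 7400 CPM there. The basal markers Itgb4 and Col17a1 rose 2.31-fold and 2.23-fold. Of the 45 genes 18 had a larger log2 fold change than Krt5 (3.92-fold) and 33 a larger one than the basal transcription factor gene Trp63 (1.98-fold). A larger one than that of Mki67 (4.56-fold) was seen in 12 of the 45. Itga6 (4.86-fold), a further basal marker, was exceeded by 10 and Krt14 (16.6-fold) by 0. Suprabasal markers fell in 5 of 6 genes, from a sum of 60735 to 101491 CPM in wild type to 14367 to 35810 CPM in EoE33. The part of these shifts in the replication result was not tested.

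Markers of other cells that can divide were measured as well. Of 5 T cell markers 1 rose, and their sum was at most 9.19 CPM in EoE33. The thymocyte markers Rag1, Rag2, Dntt and Ptcra summed to at most 0.64 CPM in any library, and Rag2 had 0 counts in all. The neutrophil precursor genes Mpo and Elane averaged 0.215 and 0.115 CPM in EoE33, while the mature neutrophil gene Retnlg averaged 38.5 CPM. B and plasma cell markers rose in 2 of 6 genes, with a sum of 2.15 to 53.6 CPM in wild type and 260 to 564 CPM in EoE33. Macrophage and monocyte markers rose in 5 of 5 genes, from a sum of 83.6 to 146 CPM to 181 to 232 CPM. The part of B, plasma and myeloid cells in the replication result was not tested.

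The other marker lists are given for completeness. Eosinophil markers rose in 3 of 4 genes and summed to at most 0.508 CPM in wild type and 6.85 to 11.9 CPM in EoE33. Mast cell markers rose in 3 of 4 genes, and their sums of 7.99 to 41 CPM in wild type and 36.1 to 87 CPM in EoE33 overlapped. Neutrophil markers, precursor genes included, rose in 2 of 4 genes, from at most 0.942 CPM to 20.9 to 63 CPM in sum. Fibroblast markers fell in 5 of 6 genes and smooth muscle markers in 4 of 5. Endothelial markers rose in 1 and fell in 2 of 4 genes, and erythroid markers gave 0 calls among 3 tested. The airway list gave 1 lower call and the liver list 2 lower calls, of 4 genes each. The 3 thyroid markers were too low to test, at most 1.77 CPM in sum.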

How the data were processed

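RNA of 8 whole esophagi was sequenced as polyA-selected, paired-end libraries, with totals of 17726292 to 24070822 counts. The authors deposited raw counts per Ensembl gene in 1 table. The submitters' processing notes list GRCm38, Trimmomatic 0.36, STAR 2.5.2b, Subread 1.5.2 and featureCounts. Annotation release and strand use were not given in the sources. Columns were assigned to mice by the spreadsheet letter in each sample's description.

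Symbols, coordinates and exon lengths came from GENCODE M21 on GRCm38, in which 49056 of 49315 identifiers were found. The fit used edgeR 4.0.16 in R 4.3.3 (filterByExpr, TMM, robust quasi-likelihood, genotype as the only term), with p-values adjusted over 16760 genes. In simulated counts 16143 genes were tested, with 50 changed at each fold and the rest unchanged. There the fit recovered 36% of 1.5-fold, 72% of 2-fold and 100% of 4-fold rises, and 92% of falls to 0.25. Of 159 calls there 9 were false. In the real data 63.4% of tested genes passed, a far larger share than was changed in the simulation. The simulated rates therefore do not carry over to the real fit. A gene that did not pass may still have changed by a small fold. CPM are counts per 1000000 of TMM-scaled library size. Ratios used counts plus 0.5. Promoter sequences are from RefSeq (GRCm38.p6).

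The 45 members and all lists were chosen with earlier results of these data known. All members are accounted for. Values in every library are given for the largest change, the smallest change and the highest level of each of 8 roles and for members that did not pass. From the further list the text names the 2 largest rises and up to 2 falls per role. For 1 gene of that list the value is not reported here. Other genes were named after their values were seen. The 18 marker lists covered mitotic, keratinocyte, T, B, thymocyte, macrophage, eosinophil, neutrophil, mast, erythroid, muscle, fibroblast, endothelial, airway, liver and thyroid genes. The labels give 4 mice per group and no batch. Alternatives were DESeq2 1.42.0, other scalings, filters and dispersion settings, a replicate term and leaving out libraries.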

Additional observations from a re-analysis of the deposited data

Results flagged for a closer look

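In 2 of 90 groups of 4 libraries, 1 library stood apart from the other 3 by the Dixon criterion, where chance gives about 1 in 20 groups. Rfc1 was at 43.7 CPM in wild type replicate 4 and at 40.8 to 41.0 CPM in the other wild type libraries. Rfc5 was at 9.09 CPM in wild type replicate 2 and at 7.04 to 7.28 CPM in the others.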

How the results depend on the processing

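The number of members that rose lay between 42 and 44 over the 17 alternatives, and 0 fell in any. Of 765 alternative values for single members 754 kept direction and side of the threshold. The rest were 7 lost calls of Orc2, 3 gained calls of Pold2 and 1 turned sign of Rpa1 (log2 fold change -0.11 to 0.0061 when 1 library was left out, highest without EoE33 replicate 4). Further-list genes that fell numbered 4 to 8 and those that rose 57 to 63 when 1 library was left out. With the longest transcript as length the EoE33 spread of the MCM subunits was 1.7-fold, by construction of the length. From 50 before to 50 after the start the share of the members' windows was 4.35% for CHR, 41.3% for CCAAT, 41.3% for GC boxes and 23.9% for E2F, where those of tested genes gave 3.7%, 13.6%, 37.2% and 0.976%. With 5 in place of 0.5 added to counts, the Lig1 to Fen1 ratio passed (exact permutation adjusted p = 0.0334), and the cause was not tested. An exact permutation test of a ratio in 4 against 3 libraries cannot go below p = 0.0571, so ratios without a library are values only. Libraries with the same replicate number did not deviate together (correlations -0.14 to 0.1, and 1 of 8 libraries correlated best with their own number). With the replicate block 43 members rose and 4936 genes rose in all. Depth limits low genes such as Dscc1, Orc1 and Fen1, with 271, 563 and 616 counts over all libraries.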

Other observations

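Within EoE33 the replication genes shared an order of libraries. Replicate 2 was highest for 33 of the 45 genes and replicate 4 lowest for 41. The summed level of the 45 genes was 1407, 1854, 1763 and 1242 CPM in EoE33 replicates 1 to 4, against 543 to 584 CPM in wild type. Mitotic markers summed to 541, 669.8, 668 and 449 CPM in the same libraries. Suprabasal keratinocyte markers summed to 35810, 14367, 20655 and 32114 CPM, and neutrophil markers to 20.9, 59.2, 63 and 22 CPM. The 2 libraries with the highest replication level thus had the lowest suprabasal and the highest neutrophil sums. These lists are a selection from the marker lists above. Skeletal muscle sums were also lowest, and B and plasma cell sums also highest, in these 2 libraries, but replicate 1 lay close. The muscle sums were 14646, 14407, 13955 and 18493 CPM in EoE33 replicates 1 to 4. The B and plasma cell sums were 335.6, 564, 336.0 and 260 CPM, so replicates 1 and 3 were nearly equal. Basal keratinocyte, eosinophil, mast cell and macrophage sums did not set these 2 libraries apart from the other EoE33 libraries. No relation was tested over 4 mice. The median coefficient of variation of the 45 genes was 10.1% in wild type and 19.6% in EoE33, against 9.56% and 12.2% for all genes of at least 1 CPM on average.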
